A study of Homo sapiens with 4 samples.

Results

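The 10 genes described here encode the immediate-early and AP-1 transcription factors *FOS*, *FOSB*, *FOSL1*, *FOSL2*, *JUN*, *JUNB*, *JUND* and *EGR1* and the immediate-early response genes *IER2* and *IER3*. They were taken by gene symbol from a table of 25268 symbols, and all 10 were found in it. The libraries came from SK-MEL-28, a human cell line derived from a BRAF-mutant melanoma, after lentiviral transduction and geneticin selection. The vector line carried the empty pTRIPZ vector and the MYC line carried a *MYC* gene under a Tet-inducible promoter. Each line was sequenced untreated and after 54 h with doxycycline (Dox), giving 4 libraries, called untreated vector, Dox vector, untreated MYC and Dox MYC, with 1 library per condition. Values listed without names follow this order. No difference between conditions therefore has a replicate check, and no test of the conditions was made.

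Immediate-early genes are transcribed within minutes of a growth or stress signal, without prior protein synthesis, and the ERK pathway that mutant BRAF keeps active is one of their main inputs. FOS and JUN proteins pair through a leucine zipper to form AP-1, which binds DNA at the same short element for many pairings. JUN proteins can pair with each other, whereas FOS proteins need a JUN partner. In melanoma the ERK pathway is known to sustain FOSL1, and AP-1 activity has been tied to invasive, less differentiated states.

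The deposited values are FPKM, that is, sequenced fragments scaled to gene length and to the depth of the library, so that levels can be set side by side between genes. Differences are given as log2(FPKM + 0.1) of one library minus that of another, which understates differences of low genes. The depth was approximately 34991654 to 41967026 fragments, as read from the steps between very low values. Estimates of this depth from single genes had quartiles of 33429378 and 40562549 fragments for untreated vector. Intervals in brackets after a difference are 95% intervals for counting error derived from this depth, and not every difference is given with one. These intervals are approximate and leave out differences between cultures and the spread of the depth estimates. *MYC* itself had 58.3 FPKM in untreated vector, 54.8 FPKM in Dox vector, 76.5 FPKM in untreated MYC and 87.1 FPKM in Dox MYC. Its log2 difference with Dox in the MYC line was thus 0.19 (0.15 to 0.22), and untreated MYC already stood above untreated vector by 0.39 (0.35 to 0.43). For the MYC line with Dox, the paper also reports raised *MYC* mRNA by RT-PCR and a higher activity of a reporter for MYC. All 7 melanocyte lineage markers were above 1 FPKM in each library. Their summed level was 7771 to 7911 FPKM in 3 libraries and 4414 FPKM in Dox MYC. Most of this sum was *PMEL*, with 6176 to 6227 FPKM in the 3 libraries and 3394 FPKM in Dox MYC. Of the 7 markers, 6 were lowest in Dox MYC, by 10.05% to 45.0% of the lowest other library, and *DCT* was lowest in Dox vector. Keratinocyte and endothelial markers did not exceed 0.195 FPKM, while 1 of the 4 fibroblast markers (*LUM*) and 1 of the 3 leukocyte markers (*CD68*) were above 1 FPKM in every library.

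The members covered a wide range of levels, and each had a mean of at least 1 FPKM, the minimum that 11147 genes met. *IER3*, which encodes a survival factor downstream of ERK and NF-κB, was by far the most abundant. It had 320.2 FPKM in untreated vector, 326.1 FPKM in Dox vector, 324.0 FPKM in untreated MYC and 215.5 FPKM in Dox MYC. Its mean of 296.4 FPKM exceeded that of 96.9% of the 11147 genes.

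Next in order were *FOSL1* with a mean of 63.0 FPKM and *IER2*, a nuclear immediate-early protein, with 50.96 FPKM. *JUND* and *JUNB* followed with 33.9 and 32.8 FPKM. *EGR1*, a zinc finger factor, and *FOS* had means of 15.8 and 14.03 FPKM, while *FOSL2* had 4.09 FPKM, *JUN* 3.56 FPKM and *FOSB* 1.45 FPKM. The ranges over the 4 libraries overlapped for the neighbouring pairs *FOSL1* and *IER2*, *JUND* and *JUNB*, *EGR1* and *FOS*, and *FOSL2* and *JUN*, but *FOSL1* was above *IER2* in all 4 libraries. Within the other pairs the order turned between libraries: *JUND* was above *JUNB* in 2 of 4, and *EGR1* was above *FOS* and *FOSL2* above *JUN* in 3 of 4.

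**Figure D1:**
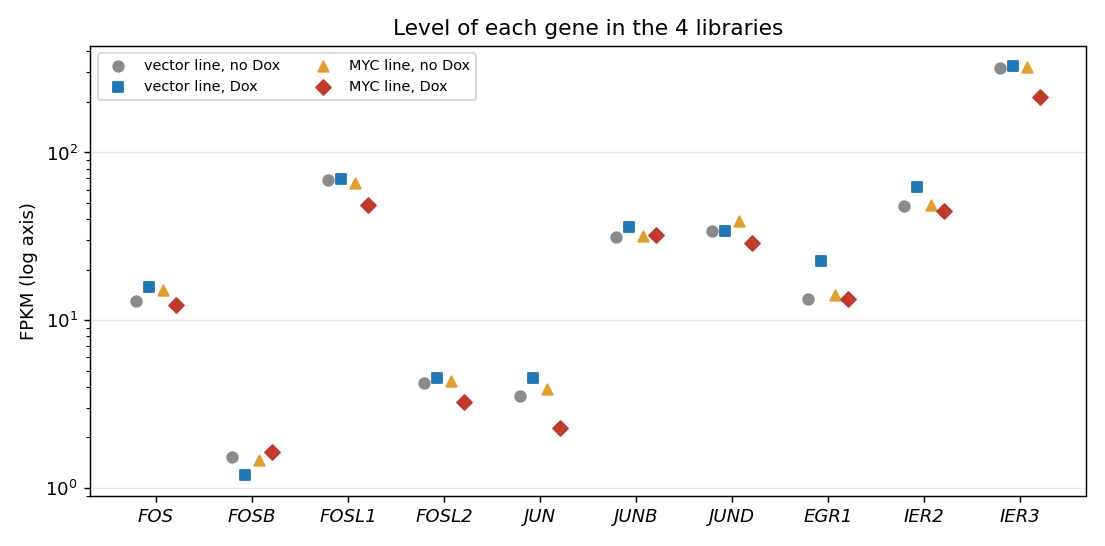
FPKM (log axis) of the 10 genes in each of the 4 libraries, with 1 symbol per library. *IER3* lies highest at 215.5 to 326.1 FPKM and *FOSB* lowest at 1.19 to 1.64 FPKM.

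Within the FOS family, *FOSL1* made up most of the summed FPKM. Its share was 78.4% in untreated vector, 76.5% in Dox vector, 75.8% in untreated MYC and 73.9% in Dox MYC. *FOS* held 15.01% to 18.6% and *FOSB* 1.30% to 2.49%. In the JUN family the level lay in *JUND* and *JUNB*, and *JUN*, the founding member, contributed 5.15%, 6.10%, 5.19% and 3.58% in the same order of libraries. The FOS family summed to 87.3, 91.2, 86.3 and 65.7 FPKM, and the JUN family to 68.9, 74.4, 74.5 and 63.3 FPKM. The sum of the FOS family was 1.27 times that of the JUN family in untreated vector, 1.23 times in Dox vector, 1.16 times in untreated MYC and 1.04 times in Dox MYC.

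Exon number follows the FOS and JUN families, and the sequence features examined differ between the members. On GRCh37, the build that the submitters name, *JUN* (chromosome 1, 59242517 to 59249720), *JUNB* (chromosome 19, 12902300 to 12904129) and *JUND* (chromosome 19, 18390504 to 18392432) each have a canonical transcript of 1 exon, a structure found in 5.47% of 19553 protein-coding genes. The canonical transcripts of *FOS* (chromosome 14, 75745529 to 75748933), *FOSB* (chromosome 19, 45971253 to 45978437), *FOSL1* (chromosome 11, 65659520 to 65668044) and *FOSL2* (chromosome 2, 28615315 to 28640184) all have 4 exons. *EGR1* (chromosome 5, 137801168 to 137804992), *IER2* (chromosome 19, 13261225 to 13265725) and *IER3* (chromosome 6, 30710976 to 30712325) have 2. On the other strand, *FOSB* overlaps *ERCC1*, which is far more abundant with 89.4 to 125 FPKM, *JUNB* overlaps *HOOK2* and *IER3* overlaps *HCG20* and *IER3-AS1*. Also on the other strand, *FOSL2* overlaps *FOSL2-AS1* and *IER2* overlaps 2 genes without a symbol. It is not stated whether counting used the strand, so that the low values of *FOSB* are uncertain. *IER3* had 6 rows in the table, of which 5 were at 0 in every library.

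Many immediate-early mRNAs are short-lived, and the pentamer ATTTA in the 3′ untranslated region is a known destabilizing element. It occurred 6 times in *IER3* and 5 times in *FOS*, that is 8.11 and 6.18 times per kilobase, against a median of 1.66 over 18085 genes. Not all members were rich in it. *JUNB* had 3.98, *JUN* 2.33 and *FOSL2* 1.85 per kilobase, whereas *FOSB*, *JUND*, *FOSL1*, *EGR1* and *IER2* were below the median and *IER2* had none.

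Promoter windows from RefSeq (GRCh38.p14), from 250 bases before to 50 bases after the annotated start, were matched for 8 members and not for *FOSL1* or *IER3*. Both strands were searched for the AP-1 site TGANTCA, the cAMP response element (CRE) TGACGTCA, the E-box CACGTG, the CArG box bound by SRF (CC, 6 bases of A or T, GG), the EGR site GCGGGGGCG and the TATA box TATAAA. The windows of *EGR1*, *FOS* and *JUND* are shown because each holds another of these elements, and in each the start follows base 250. Capitals mark the 2 CArG boxes of *EGR1*, the TATA box of *FOS* and the cAMP response element of *JUND*.
EGR1, chr5:138465229-138465528, plus strand: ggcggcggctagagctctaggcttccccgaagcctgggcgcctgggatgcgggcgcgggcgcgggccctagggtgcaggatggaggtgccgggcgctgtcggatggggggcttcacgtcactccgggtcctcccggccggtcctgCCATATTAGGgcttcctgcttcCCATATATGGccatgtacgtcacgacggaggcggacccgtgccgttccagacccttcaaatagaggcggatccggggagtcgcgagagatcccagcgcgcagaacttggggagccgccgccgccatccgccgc
FOS, chr14:75278578-75278877, plus strand: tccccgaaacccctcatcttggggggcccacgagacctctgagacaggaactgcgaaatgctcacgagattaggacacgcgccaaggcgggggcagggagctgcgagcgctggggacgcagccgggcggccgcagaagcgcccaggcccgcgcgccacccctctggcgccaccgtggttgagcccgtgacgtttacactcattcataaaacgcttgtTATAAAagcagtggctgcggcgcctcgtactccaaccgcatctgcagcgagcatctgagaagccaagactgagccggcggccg
JUND, chr19:18281573-18281872, minus strand: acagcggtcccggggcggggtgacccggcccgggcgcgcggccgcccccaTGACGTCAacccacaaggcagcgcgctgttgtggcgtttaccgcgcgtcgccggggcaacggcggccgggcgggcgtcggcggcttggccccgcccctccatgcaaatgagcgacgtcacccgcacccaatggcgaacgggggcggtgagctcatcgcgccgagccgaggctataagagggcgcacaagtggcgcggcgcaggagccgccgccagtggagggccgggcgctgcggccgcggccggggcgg
A CArG box was found in 1.29% of 35116 promoters of this length, and at least 2 of them in 0.0313%. The boxes of *EGR1* lay at -105 to -96 and -83 to -74 from the start. A TATA box was present in *FOS*, *FOSB* and *JUNB*, beginning at -33, -30 and -31, and in 11.5% of all promoters. The cAMP response element of *JUND* began at -200 (1.85% of all promoters), and *FOSL2* held an AP-1 site that began 5 bases after the start (7.71%). No E-box or EGR site, found in 7.26% and 5.07% of all promoters, matched in the 8 windows, and *JUN* and *IER2* held none of the 6 elements. These matches describe letters only and say nothing of binding.

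**Figure D2:**
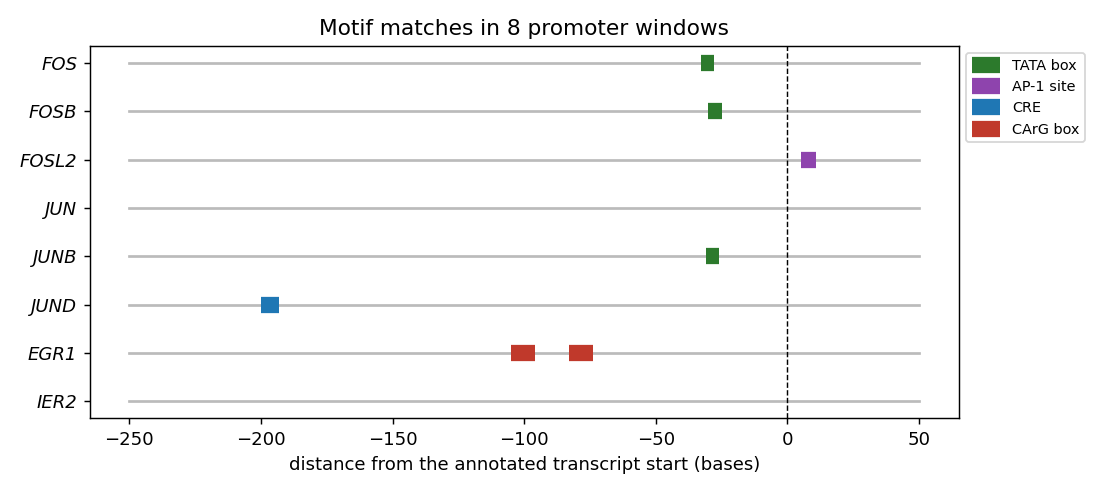
Matches to the searched elements along 8 promoter windows, by distance in bases from the annotated transcript start (dashed line). The TATA boxes of *FOS*, *FOSB* and *JUNB* lie between -33 and -25 and the 2 CArG boxes of *EGR1* between -105 and -74.

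The first comparison, Dox MYC against untreated MYC, asks how these genes stood after induction of the transgene. Of the 10 members, 8 were lower with Dox and 2 were higher, where 53.1% of all genes were lower, with a median log2 difference of -0.35, beside -0.03 over all 11147 genes. *JUN* and *IER3* were at least 1.5-fold lower, as were 8.85% of all genes, and none was at least 1.5-fold higher, as were 5.90% of all genes. For 7 members the lower value lay beyond counting error, and for *FOSB*, *JUNB* and *EGR1* the interval included 0. The share of all genes beyond counting error within a line was not calculated, so this count has no reference. In whole cultures, a loss of expressing cells and less RNA per cell cannot be told apart. The melanocyte markers given above, other than *DCT*, were also lowest in the same library, and their part in these differences was not tested.

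*JUN* had 3.55 FPKM in untreated vector, 4.54 FPKM in Dox vector, 3.87 FPKM in untreated MYC and 2.27 FPKM in Dox MYC. Dox MYC thus stood below all the other libraries, by 36.2% of the lowest of them. In the MYC line the log2 difference of *JUN* was -0.75 (95% counting interval -0.95 to -0.54), from approximately 529 and 290 fragments, and 576 of the 11147 genes, itself included, had a difference as low or lower. It was -0.58 with a pseudocount of 1, which is under 1.5-fold.

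*IER3* and *FOSL1* shared a pattern in which 3 libraries were level and Dox MYC was low. The 3 other libraries of *IER3* spanned only 320.2 to 326.1 FPKM, and Dox MYC was 32.7% below the lowest. Its log2 difference was -0.59 (-0.62 to -0.55), just past 1.5-fold, and -0.56 after scaling by the median ratio or the upper quartile, which is under it. *FOSL1* had 68.4 FPKM in untreated vector, 69.8 FPKM in Dox vector, 65.5 FPKM in untreated MYC and 48.5 FPKM in Dox MYC, a log2 difference of -0.43 (-0.50 to -0.37). *FOSL2*, a FOS relative without the strong activation domain of FOS, had 4.24, 4.52, 4.34 and 3.25 FPKM in the same order and a difference of -0.41 (-0.53 to -0.28). Among the 45 pairs of members, *FOSL1* and *FOSL2* were closest in profile, at a Euclidean distance of 0.0903 between centred log2 values over the 4 libraries, followed by *FOSL1* and *IER3* at 0.111.

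*JUND*, often an antagonist of growth among the JUN proteins, had 34.1, 33.9, 38.9 and 28.8 FPKM in the same order, and a log2 difference of -0.43 (-0.51 to -0.35) in the MYC line. Untreated MYC was its highest library, so the distance to untreated vector was smaller. *FOS* had 13.1, 15.7, 15.1 and 12.2 FPKM and a difference of -0.30 (-0.41 to -0.18), but its lowest value was only 6.53% below that of untreated vector. *IER2* differed by -0.11 (-0.18 to -0.05) and *EGR1* by -0.09 (-0.18 to 0.01). *JUNB* was level at 31.8 and 32.2 FPKM, with a difference of 0.02 whose sign turned to -0.03 after rescaling of the libraries to the same sum. *FOSB* alone lay higher by more than 0.1, at 0.16 (-0.10 to 0.42), on approximately 231 and 242 fragments.

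**Figure D3:**
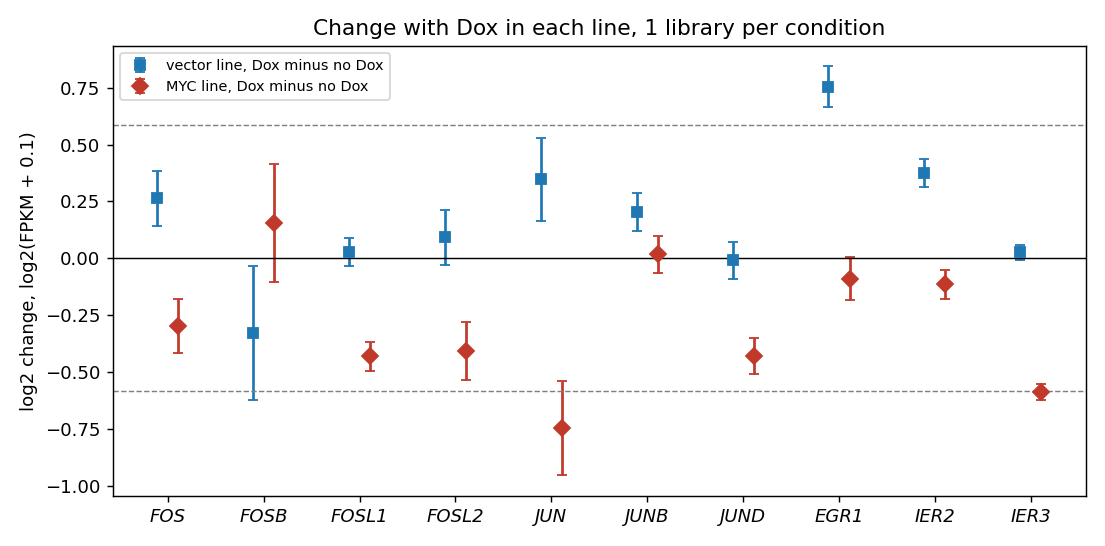
Log2 difference with Dox minus without Dox for each gene in the vector line (squares) and the MYC line (diamonds), with bars for the 95% interval of counting error and dashed lines at 1.5-fold. *JUN* and *IER3* lie past the lower line in the MYC line and *EGR1* past the upper line in the vector line.

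In the vector line, which carries no *MYC* transgene, the picture was a different one. Here 8 members were higher with Dox and 2 were lower, where 54.2% of all genes were higher, with a median log2 difference of 0.15, beside 0.01 over all genes. *EGR1* was at least 1.5-fold higher, as were 0.709% of all genes, and no member was at least 1.5-fold lower, as were 0.440%. The higher value lay beyond counting error for *EGR1*, *IER2*, *JUN*, *FOS* and *JUNB*, and the lower one for *FOSB*. Here too, the share of all genes beyond counting error was not calculated.

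*EGR1* had 13.4 FPKM in untreated vector, 22.6 FPKM in Dox vector, 14.2 FPKM in untreated MYC and 13.3 FPKM in Dox MYC. Dox vector stood apart and the 3 others lay within 1 FPKM of each other. The log2 difference was 0.75 (0.66 to 0.84), and 45 of the 11147 genes, itself included, had one as high or higher. *IER2* followed the same order, with 48.1, 62.4, 48.5 and 44.8 FPKM and a difference of 0.38 (0.31 to 0.44) in the vector line. The differences were 0.35 (0.16 to 0.53) for *JUN*, 0.26 (0.14 to 0.38) for *FOS* and 0.20 (0.12 to 0.29) for *JUNB*.

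*FOSL1*, *IER3*, *FOSL2* and *JUND*, all lower with Dox in the MYC line, were nearly level here. The log2 difference was 0.03 for *FOSL1* and for *IER3*, 0.09 for *FOSL2* and -0.01 for *JUND*. *FOSB* differed by -0.33 (-0.62 to -0.03), on approximately 224 and 157 fragments. With a single culture per condition, Dox and a difference between cultures cannot be told apart.

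**Figure D4:**
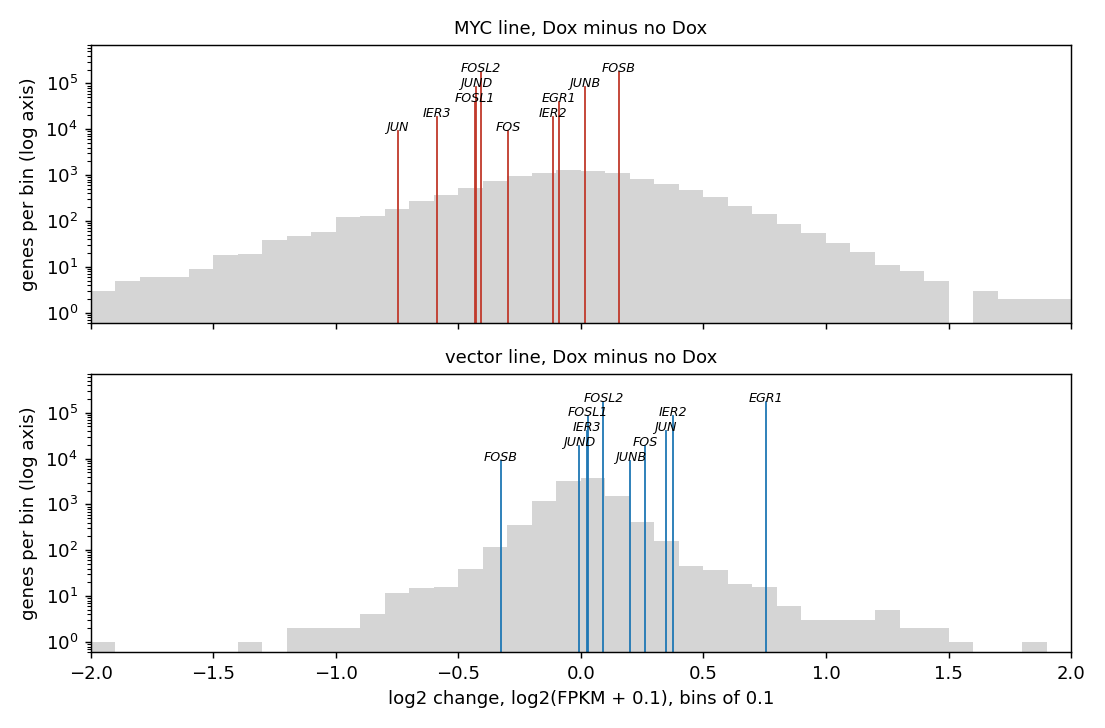
Number of genes (log axis) by log2 difference with Dox in bins of 0.1, over 11147 genes, with the 10 members as labelled lines. Genes beyond 2 on either side are not drawn. In the MYC line 8 members lie below 0, and in the vector line *EGR1* lies far in the upper tail at 0.75.

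Set against each other, the 2 lines differed most for *JUN* and *EGR1*. The difference in the MYC line minus that in the vector line was -1.09 for *JUN* (-1.37 to -0.82) and -0.84 for *EGR1* (-0.97 to -0.71). It was -0.61 for *IER3*, -0.56 for *FOS*, -0.50 for *FOSL2*, -0.49 for *IER2*, -0.46 for *FOSL1*, -0.42 for *JUND* and -0.19 for *JUNB*, and positive for *FOSB* alone, at 0.48 (0.09 to 0.88). The median over the members was -0.49, beside -0.04 over all genes, but the genes reached it by different routes. For *IER3*, *FOSL1*, *FOSL2* and *JUND* most of it came from the MYC line, for *EGR1* and *IER2* from the vector line, and for *JUN* and *FOS* from both.

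Over the 4 libraries, Dox MYC was lowest for 8 members (all but *FOSB* and *JUNB*), as it was for 42.9% of all genes. For *EGR1* it was lowest by only 0.365% of the lowest other library. Dox vector was highest for 8 members (all but *FOSB* and *JUND*), against 21.4% of all genes. These include near ties, such as *IER3* with 326.1 against 324.0 FPKM and *FOSL1* with 69.8 against 68.4 FPKM in the next library. A lower value with Dox in the MYC line together with a higher one in the vector line was found for 7 members and for 26.4% of all genes. Opposite directions in the lines, each beyond its counting interval, were found for 3 members and for 10.4% of the 10143 genes with such an interval.

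Before Dox, 8 members were higher in the MYC line and 2 were lower, where 59.5% of all genes were higher. The median log2 difference was 0.03, beside 0.02 over all genes, whereas *MYC* itself was higher in untreated MYC by 0.39. Between the untreated libraries no member differed 1.5-fold, where 0.592% of all genes were that much higher in the MYC line and 0.287% that much lower. The log2 difference was 0.20 for *FOS* (0.08 to 0.32) and 0.19 for *JUND* (0.11 to 0.26), and it lay between -0.06 and 0.12 for the other 8. The differences of *FOS* and *JUND* exceeded those of 91.9% and 90.8% of all genes. With Dox in both lines, 9 members were lower in the MYC line, as were 50.7% of all genes, with a median of -0.47, beside -0.01 over all genes. *JUN*, *EGR1* and *IER3* were at least 1.5-fold lower, at -0.97, -0.76 and -0.60, as were 8.62% of all genes, and none was that much higher, as were 6.50%. This comparison shares a library with each of the comparisons within a line.

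Genes that share the inducers of the members were examined by lists. Of 29 other immediate-early genes, 25 had a mean of at least 1 FPKM, and 21 of these were lower with Dox in the MYC line, 8 of them at least 1.5-fold, where 53.1% and 8.85% of all genes were. Their median log2 difference was -0.47 in the MYC line, beside -0.02 in the vector line. *CTGF*, a matricellular target of SRF cofactors and YAP, had 20.8, 20.3, 21.6 and 8.26 FPKM in the same order of libraries and a difference of -1.38. *NR4A3*, a nuclear orphan receptor, differed by -1.03, and *EGR3*, an *EGR1* paralog, by -0.96. *SRF*, the factor that binds CArG boxes and is also in the list of upstream factors, was higher by 0.53, with 9.26 and 13.5 FPKM in the MYC line. In the vector line *CYR61*, also a matricellular gene, was the only one of the 25 at least 1.5-fold higher, at 0.68, as were 0.709% of all genes.

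Of 14 other genes of the AP-1 superfamily, 8 passed the minimum. The small MAF gene *MAFF* had 68.3, 80.5, 67.3 and 42.9 FPKM, which put it close to *FOSL1* in level, and differed by -0.65 in the MYC line and 0.24 in the vector line. *ATF7*, a CREB-related factor, differed by -0.58 in the MYC line. *BATF3*, a JUN partner that lacks an activation domain, had 0.998, 1.05, 0.902 and 2.09 FPKM. Its difference in the MYC line was 1.13 (0.52 to 1.74), on approximately 32 and 69 fragments. It passed the minimum only because Dox MYC, where it was highest, entered the mean. *ATF3*, a stress-induced repressor, had 0.757, 2.32, 0.854 and 1.25 FPKM, on approximately 57, 158, 70 and 95 fragments. It stood highest in Dox vector and passed the minimum only because that library entered the mean. The log2 difference of *ATF3* in the MYC line was 0.50 (0.05 to 0.95). Of these 8 genes, 5 were lower and 3 higher with Dox in the MYC line, where 53.1% of all genes were lower. In the vector line 7 were higher with Dox, where 54.2% of all genes were higher. *ATF3*, among these 7, was counted only through its high value in Dox vector.

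In the median, the upstream kinases and factors lay close to level. Of 21, 18 passed the minimum, and none of these differed 1.5-fold in either line. In the MYC line 5.90% of all genes were that much higher and 8.85% that much lower, and in the vector line 0.709% and 0.440%. The medians were -0.04 in the MYC line and -0.03 in the vector line. After *SRF*, the largest differences in the MYC line were -0.53 for *MAPK7*, which encodes ERK5, and -0.50 for the ternary complex factor *ELK3*. Of the 6 co-regulators and turnover genes, 4 were lower and 2 higher with Dox in the MYC line, where 53.1% of all genes were lower. None of the 6 differed 1.5-fold there. The EGR1 corepressor *NAB2* had 28.5, 28.0, 27.6 and 20.1 FPKM and a difference of -0.46 in the MYC line, *FBXW7*, a ubiquitin ligase subunit that recognizes JUN, had 0.42, and *NAB1* had -0.17.

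Of 19 genes known as AP-1 targets, 13 passed the minimum, and 9 of these were lower with Dox in the MYC line, 7 of them at least 1.5-fold, against the same 53.1% and 8.85% of all genes. The median was -0.68 in the MYC line and 0.05 in the vector line. *PLAUR*, the urokinase receptor, had 74.1, 86.3, 72.5 and 30.4 FPKM and a difference of -1.25 in the MYC line. The stromelysin gene *MMP3* had 1.79, 0.941, 2.39 and 0.923 FPKM. It was lower with Dox in both lines, by -1.28 in the MYC line and -0.86 in the vector line. *CXCL8*, which encodes interleukin-8, differed by -0.96 in the MYC line and by 0.76 in the vector line. *HMGA1*, a chromatin protein, was the exception among the larger differences, with 0.89 in the MYC line. Many of these targets respond to other factors as well.

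**Figure D5:**
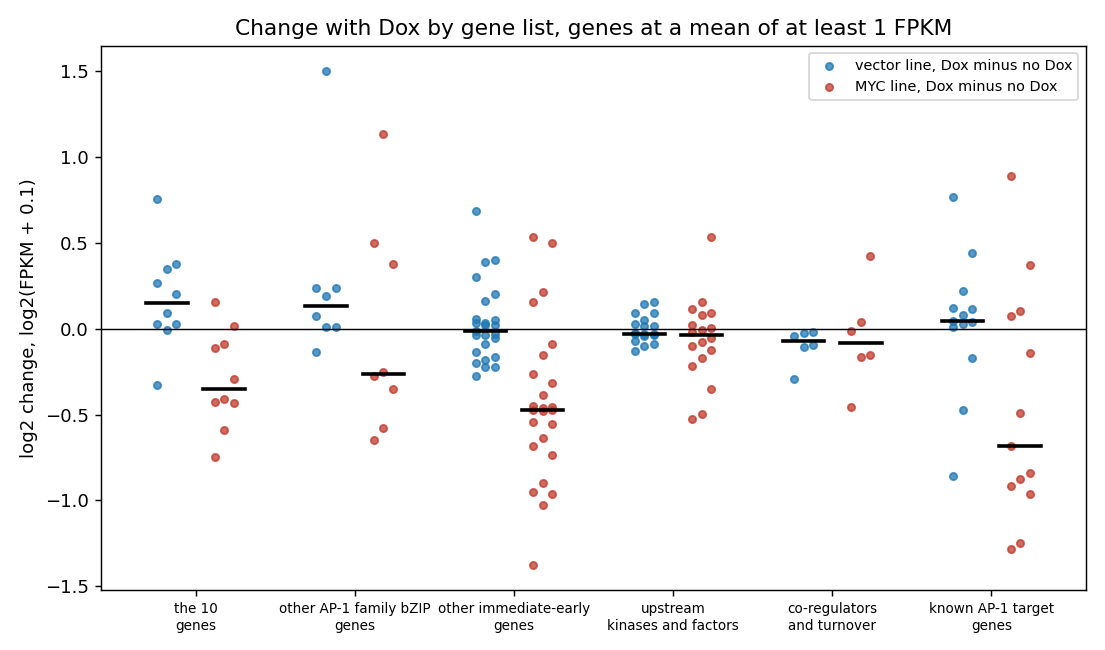
Log2 difference with Dox minus without Dox for the 10 genes and 5 lists in the vector and MYC lines, each point a gene at a mean of at least 1 FPKM and each black bar the median. In the MYC line the median lies at -0.35 for the 10 genes, -0.47 for other immediate-early genes, -0.68 for AP-1 targets and -0.04 for upstream kinases and factors.

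Genes whose profile over the 4 libraries was most like those of the 3 members with the widest range were also taken, by Euclidean distance of centred log2 values. For *JUN* these were *NNMT*, at a distance of 0.0330, *TRIOBP* at 0.0527 and *CCDC159* at 0.0592. *NNMT*, which encodes nicotinamide N-methyltransferase, had 28.7, 35.5, 30.6 and 18.4 FPKM. For *EGR1* they were *RAPH1* at 0.0777, *METRNL* at 0.119 and *RAB8B* at 0.124, and for *IER3* they included the lysosomal gene *ACP2* at 0.0139 and the AP-1 family gene *ATF7* at 0.0218. With 4 libraries, such likeness describes the profile and no more.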

How the data were processed

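RNA-Seq libraries of the vector and MYC lines of SK-MEL-28, untreated or after 54 h with Dox, were analysed (4 libraries, 1 per condition). Expression was deposited by the authors as FPKM in a table of 27032 rows. The submitters' processing notes name TopHat2 2.0.14, Cufflinks and hg19 or GRCh37, without their roles, and the annotation and use of strand are not given in the sources used here. The 1 row that named no gene was dropped, and rows with the same symbol (609 symbols) were summed. FPKM values are not counts, so no count model was fitted, and with 1 library per condition no p-value is given.

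Depth was approximated from genes below 0.2 FPKM in all libraries. Of 3665 such genes, 58.7% had values that were whole multiples, up to 12 and within 1.2%, of a single step, and the depth was taken from 207 of them that have 1 annotated transcript, 1500 bases or longer. A counting interval used the canonical transcript length in GENCODE release 44 on GRCh37. It covers fragment sampling only. Genes under a mean of 1 FPKM were not counted. The members, the lists, the elements searched and the alternatives were chosen with earlier results of these data known. The named genes were the 10 members, the 3 genes nearest in profile to each of the 3 members of widest range, and, in each list, the 3 genes with the largest difference in the MYC line. In addition, *CYR61*, *ATF3* and *HMGA1* were named after their values were seen. *IL8* of the AP-1 target list was found as *CXCL8*. Of the genes nearest in profile to *IER3*, 1 is not reported here. A planned comparison of protein sequences was not made here. The calculation of differences was tested on simulated FPKM values with known changes. That simulation did not cover the depth estimate, the counting intervals, the profile distances or the motif search. Scripts ran under Python 3.11.15 with pandas 2.3.3 and numpy 2.4.6, and figures were drawn with matplotlib 3.10.9.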

Additional observations from a re-analysis of the deposited data

Results flagged for a closer look

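Differences with Dox of opposite sign in the 2 lines, each beyond its counting interval, were found for *FOS*, *JUN* and *IER2*, and for 10.4% of 10143 genes. The log2 difference in the MYC line minus that in the vector line was -0.56 for *FOS*, -1.09 for *JUN* and -0.49 for *IER2*. Each line gives 1 library with and 1 without Dox, so this difference was not tested.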

How the results depend on the processing

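No paired analysis was possible because the conditions have a single library each and no replicate numbers. Of 50 recalculated medians or means over the members, all 50 moved by less than the robust SD of all genes between the untreated lines, 0.11 on the log2 scale. Over 9 alternatives the median was -0.40 to -0.30 in the MYC line, 0.13 to 0.20 in the vector line and -0.52 to -0.44 for the first minus the second, and between the untreated lines it was -0.01 to 0.05 and so changed sign. The mean in place of the median was -0.29 in the MYC line and 0.18 in the vector line, and untreated MYC minus untreated vector gave 0.06. Of 430 recalculated differences of single members, 4 moved beyond counting error, 3 of them for *IER3*.
The count of members at least 1.5-fold lower in the MYC line, 2 as reported, was 1 with a pseudocount of 1, with a mean of at least 5 FPKM, with scaling by the median ratio or the upper quartile and without symbols of several rows, and 0 at 2-fold. At 2-fold, 0 members were higher in the vector line, 0 were lower in the MYC line than in the vector line with Dox, and 1 was lower in the difference between the lines. Without symbols of several rows *IER3* is not counted, and the filter at 5 FPKM removes *FOSB*, *FOSL2* and *JUN*. The 2 scalings put *IER3*, at 1.503-fold as reported, under 1.5-fold, and the pseudocount of 1 does so for *JUN*. Counts of all genes moved over 1.5 times in 28 of 72 recalculations, for example in the MYC line to 1138 higher and 1748 lower without the filter and to 117 and 228 at 2-fold, from 658 and 986. Depth limits *FOSB* most, whose counting errors were 0.133 and 0.150 in the MYC and vector lines.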
